A study of Mus musculus with 10 samples.

Results

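Solute carriers are membrane proteins that move small molecules and ions across the plasma membrane and the membranes of organelles, and their mouse genes carry symbols starting with Slc or, for the organic anion transporters, Slco. The table of read counts held 385 protein-coding genes with such symbols. The 146 described here are those with at least 100 counts summed over the 10 libraries, after 6 genes (Slc2a1, Slc2a3, Slc16a3, Slc18a2, Slc7a5 and Slc7a11) had been left out by the rule that defined the set. The members were thus chosen by their summed counts, and that they are expressed at all is no finding. Just inside the minimum were Slc25a53 with 100 counts, Slc9a9 and Slc25a26 with 107 each and Slc16a1 with 115. Just outside were the serotonin transporter gene Slc6a4 with 99 counts, Slc1a4 with 96 and Slc25a42 with 94. A further 59 symbols had 0 counts in every library. All 146 members passed the filter on low counts and were tested.

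The cells were bone marrow-derived cultured mast cells (BMMCs), primary cells that develop from marrow progenitors when these are cultured with the cytokine interleukin 3 (IL-3). They came from wild-type C57BL/6 mice. The groups were SCF (stem cell factor, which activates the mast cell receptor KIT) at 100 ng/mL, SCF plus transforming growth factor beta (TGF-β) at 1 ng/mL, SCF plus TGF-β at 10 ng/mL, IL-3 alone, TGF-β at 1 ng/mL without SCF and TGF-β at 10 ng/mL without SCF. The first 4 of these had 2 libraries each and the last pair 1 library each, and the stimuli lasted 72 h. All groups share a culture of 6 to 8 weeks in IL-3, whose dose the labels of every library give both as 5 ng/mL (protocol) and as 10 ng/mL (source), and an age of 6 to 8 weeks is also given. The SCF dose in the combinations and whether IL-3 stayed in the medium during stimulation are not stated. Nothing says that the libraries of a group are separate cultures or mice, so the p-values rest on a spread that may be technical. In the text, TGF-β alone means without SCF.

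Carriers are either exchangers, which swap one solute for another, or cotransporters and uniporters, which use ion gradients or the gradient of the solute itself. The light chains among the SLC7 amino acid carriers work as heterodimers with the CD98 heavy chain (Slc3a2), the SLC25 family crosses the inner mitochondrial membrane, and the SLC35 family brings nucleotide sugars into the Golgi for glycan synthesis. Cytosolic zinc is raised by the SLC39 family and lowered by the SLC30 family. Mast cells are secretory cells whose granules are rich in zinc and sulfated glycans.

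Each library held 1237382 to 2323916 gene counts, and a level of 3 counts was 1.26 to 2.55 CPM (count divided by the TMM-scaled library size, on the usual CPM scale). The 8 mast cell markers together were at 77056 to 90369 CPM in SCF, 56365 to 67784 CPM in SCF with 1 ng/mL and 54444 to 62159 CPM in SCF with 10 ng/mL TGF-β. Without SCF they were at 64024 to 66932 CPM in IL-3, 53425 CPM in 1 ng/mL and 53548 CPM in 10 ng/mL TGF-β alone. Of these 8 markers, 2 were called higher and 0 lower in SCF than in IL-3. With 1 ng/mL TGF-β added to SCF 0 were higher and 3 lower, and with 10 ng/mL 0 and 4. In TGF-β alone against IL-3 1 was higher and 3 lower, and in SCF plus TGF-β against TGF-β alone 1 and 1. The shares of all genes tested, higher and lower, were 5.71% and 3.46% for SCF against IL-3. They were 1.89% and 2.75% for 1 ng/mL and 3.78% and 4.59% for 10 ng/mL TGF-β added to SCF. For TGF-β alone they were 1.36% and 2.12%, and for the combinations against TGF-β alone 13.3% and 11.4%. The neutrophil, lymphocyte, fibroblast and dendritic lists stayed below 4 CPM in every library. The 6 erythroid genes summed to 6.32 to 30.3 CPM, highest in 10 ng/mL TGF-β alone, and 0 of the 2 that passed the filter were called in any comparison. The 6 macrophage markers summed to 10.5 to 18.4 CPM, with C1qb and C1qc at 0. The basophil pair Mcpt8 and Prss34 summed to 6.79 to 32.6 CPM, with Mcpt8 called higher and Prss34 lower in SCF than in IL-3; the part of these lists in the results below was not tested. In a principal component analysis of the 146 members, component 1 held 50.03% of the variance. It placed the 6 SCF libraries at 1.33 to 4.83 and the other 4 at -5.75 to -4.29. Component 2, with 20.6%, placed the 6 TGF-β libraries at -3.75 to -0.35 and the other 4 at 2.91 to 3.41. Fewer cells of a type and less RNA per cell cannot be told apart in such bulk libraries.

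The members took 0.787% to 1.04% of the counts assigned to genes. Their medians over the 10 libraries ran from 5.31 CPM (Slc9a9) to 799.7 CPM (the neutral amino acid exchanger Slc7a8), with 20 members under 10 CPM and 16 over 100 CPM. Levels between genes are compared here per kilobase of exon. On that scale the mitochondrial ADP/ATP carrier Slc25a5 was the highest at a median of 339.0 CPM per kb, followed by Slc3a2 at 196, Slc7a8 at 159.8 and the scaffold protein gene Slc9a3r1 at 149 CPM per kb. Next came the oxoglutarate carrier Slc25a11 at 119, the heme transporter Slc48a1 at 115 and the mitochondrial phosphate carrier Slc25a3 at 107 CPM per kb. The 146 members fell into 13 substrate classes and 1 class of 3 genes that carry an Slc symbol without being transporters. The largest classes were the mitochondrial carriers with 30 members, metals and heme with 20, nucleotide sugars with 19, inorganic ions and pH with 19 and amino acids with 18.

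A gene counts as called where the p of edgeR's quasi-likelihood test, adjusted by Benjamini and Hochberg over all 11247 genes tested, was under 0.05. Values are given as log2 fold changes ± standard error (approximated as the fold change over the square root of F). In SCF against IL-3, 13 members were higher and 10 lower, 15.8% of the members against 9.17% of all genes tested (5.71% higher and 3.46% lower). The largest rises were in the folate transporter Slc46a1, the nucleobase transporter Slc43a3 and the organic anion transporter Slco2b1. The largest falls were in the mitochondrial ATP-Mg/phosphate carrier Slc25a23, the zinc exporter Slc30a4 and the betaine and GABA transporter Slc6a12. The median log2 fold change was 0.07 over the members and -0.02 over all genes tested. Calls for Slc43a3, Slc46a1, Slc6a12 and Slco2b1 held when any single library was left out and in every alternative tried that gave an adjusted p (DESeq2 gave none for Slc46a1). The other 19 calls were each lost without at least 1 library: 8 without replicate 1 of IL-3, 16 without replicate 2 of IL-3, 8 without replicate 1 of SCF and 17 without replicate 2 of SCF. Leaving out a library of SCF with TGF-β, which is outside this comparison, ended 2 to 4 calls.

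Adding 1 ng/mL TGF-β to SCF raised 3 members and lowered 6, 6.16% of the members against 4.64% of all genes tested (1.89% higher and 2.75% lower). With 10 ng/mL, 10 members were higher and 11 lower than in SCF, 14.4% of the members against 8.37% of all genes (3.78% higher and 4.59% lower). The fatty acid transporter Slc27a1, Slc43a3 and the zinc importer Slc39a4 rose at both doses. The carrier Slc45a3, the nucleotide sugar transporter Slc35d1, the GABA transporter Slc6a13, Slc48a1, the hexose transporter Slc2a6 and the taurine transporter Slc6a6 fell at both. These comparisons share the SCF libraries. The medians over the members were -0.04 at 1 ng/mL and -0.06 at 10 ng/mL, and over all genes 0.01 at 1 ng/mL and -0.001 at 10 ng/mL. At 1 ng/mL the calls of Slc27a1 and Slc45a3 held without any single library, and the other 7 were lost without at least 1, namely 6 without replicate 1 of SCF, 3 without replicate 2 of SCF and 5 without each library of the combination. At 10 ng/mL the calls of Slc27a1, Slc2a6, Slc39a4, Slc45a3 and Slc48a1 held. Of the other 16, 11 were lost without replicate 1 of SCF, 9 without replicate 2 of SCF, and 14 and 7 without replicates 1 and 2 of the combination; 1 was lost without replicate 2 of SCF plus 1 ng/mL TGF-β.

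For TGF-β alone the 2 doses were averaged, and against IL-3 this gave 3 members higher and 9 lower, 8.22% of the members against 3.48% of all genes tested (1.36% higher and 2.12% lower). The rises were in the aromatic amino acid transporter Slc16a10, Slc27a1 and the glycine transporter Slc6a9. Each dose had 1 library, whose spread was taken from the other groups. Only Slc27a1 held its call without any single library: 9 of the 12 calls were lost without replicate 1 of IL-3, 4 without replicate 2 of IL-3, and 9 without each library of TGF-β alone, while 2 were lost without each library of SCF with 10 ng/mL TGF-β. The contrast with the most calls was SCF plus TGF-β against TGF-β alone, with doses averaged (4 libraries against 2). There 25 members were higher and 19 lower, 30.1% of the members against 24.7% of all genes tested (13.3% higher and 11.4% lower). In it 8 calls held without any single library (Slc25a5, Slc43a3, Slc46a1, Slc50a1, Slc6a12, Slc6a13, Slco2b1 and Slco4a1). Of the other 36, 26 were lost without the library of 1 ng/mL TGF-β alone and 29 without that of 10 ng/mL; leaving out any other library ended 1 to 10 calls. In all 5 comparisons the libraries of the 2 sides did not overlap for any called member. A call on so few libraries makes this likely, so it adds no support to the calls. The share of all genes without overlap was not counted.

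**Figure D1:**
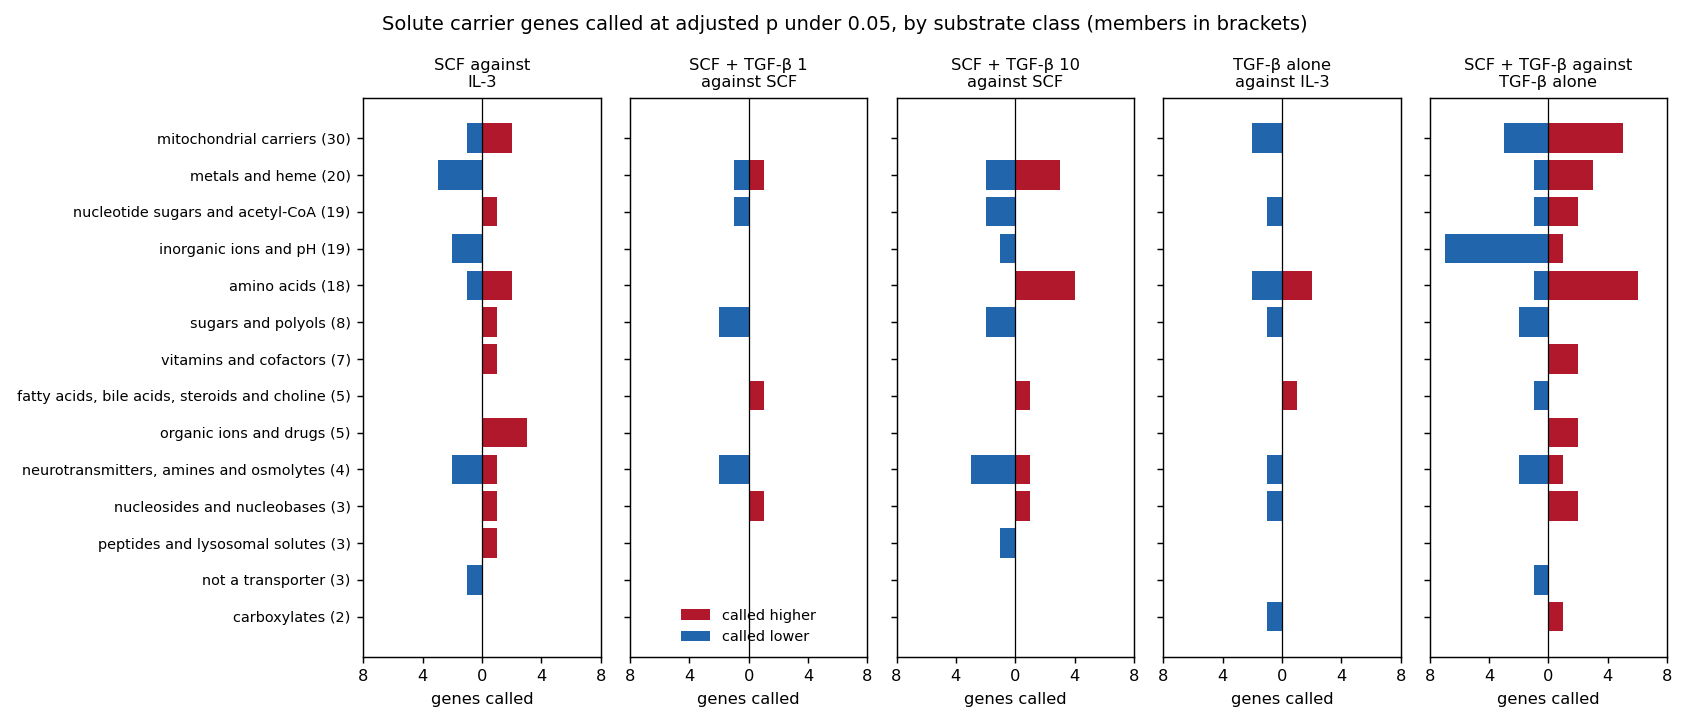
Number of solute carrier genes called higher (red, to the right) and lower (blue, to the left) at an adjusted p under 0.05 in each substrate class (rows, with the number of members in brackets) and each of 5 comparisons (panels). The inorganic ion class had 7 members lower and 1 higher in SCF plus TGF-β against TGF-β alone, and the amino acid class 6 higher and 1 lower. Of all genes tested, 13.3% were higher and 11.4% lower in that comparison.

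Transporters of organic anions, folate and nucleobases gave the 3 largest rises in SCF against IL-3. The organic anion transporter Slco2b1 (ENSMUSG00000030737; chromosome 7, 99657804 to 99711340 on GRCm38, the build of all coordinates here), which takes up steroid sulfates and many drugs, was at 92.1 and 133 CPM in SCF, 120.4 and 132 CPM in SCF with 1 ng/mL TGF-β and 96.1 and 103 CPM in SCF with 10 ng/mL TGF-β. Without SCF it was at 26.9 and 11.9 CPM in IL-3, 12.7 CPM in 1 ng/mL TGF-β alone and 9.33 CPM in 10 ng/mL TGF-β alone. Every library with SCF lay above every library without it, by 2.46 ± 0.27 for SCF against IL-3 (adjusted p = 3.53e-05) and 3.35 ± 0.30 for SCF plus TGF-β against TGF-β alone (adjusted p = 1.26e-06). Slco4a1, a thyroid hormone and organic anion transporter, was at 40.5 and 45.4 CPM in SCF, 39.6 and 56.4 CPM in SCF with 1 ng/mL TGF-β and 42 and 46.2 CPM in SCF with 10 ng/mL TGF-β. Without SCF, Slco4a1 was at 16.1 and 21.8 CPM in IL-3, 20.4 CPM in 1 ng/mL TGF-β alone and 10.9 CPM in 10 ng/mL TGF-β alone. It too was higher in every library with SCF (1.20 ± 0.26, adjusted p = 0.00863 against IL-3; 1.61 ± 0.26, adjusted p = 0.00027 against TGF-β alone). The urate transporter Slc2a9 was at 18 and 12.6 CPM in SCF and 5.7 and 6.32 CPM in IL-3 (1.36 ± 0.40, adjusted p = 0.0438), and at 9.26 and 10.1 CPM and 7.6 and 8.69 CPM when 1 and 10 ng/mL TGF-β were added. Leaving out 1 library ended the calls against IL-3 of Slco4a1 (adjusted p = 0.0893 when replicate 1 of IL-3 was left out) and Slc2a9 (adjusted p = 0.236 when replicate 1 of SCF was left out). The other members of this class, the carnitine transporter Slc22a5 and Slc22a23, were called in no comparison.

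The proton-coupled folate transporter Slc46a1 (ENSMUSG00000020829; chromosome 11, 78465697 to 78472059) was low in all groups and highest with SCF. It was at 12.5 and 20.2 CPM in SCF, 20.2 and 17.2 CPM in SCF with 1 ng/mL TGF-β and 18.8 and 21.7 CPM in SCF with 10 ng/mL TGF-β. Without SCF, Slc46a1 was at 2.59 and 0.702 CPM in IL-3, 4.24 CPM in 1 ng/mL TGF-β alone and 3.11 CPM in 10 ng/mL TGF-β alone. The difference was 3.13 ± 0.53, adjusted p = 0.00145 for SCF against IL-3 and 2.40 ± 0.44, adjusted p = 0.000874 for SCF plus TGF-β against TGF-β alone. The IL-3 libraries were near the level of 3 counts, so that the first of these folds is imprecise. Among the other vitamin carriers, the thiamine transporter Slc19a2 was at 12.6 and 17.2 CPM and 17 and 23.3 CPM in SCF with 1 and 10 ng/mL TGF-β, against 7.64 and 2.33 CPM in TGF-β alone (2.0019 ± 0.43, adjusted p = 0.00249). This value was 0.94 without the library of 10 ng/mL TGF-β alone, when the call was lost (adjusted p = 0.257), and 3.07 without that of 1 ng/mL. The reduced folate carrier Slc19a1 and the riboflavin transporters Slc52a2 and Slc52a3 were called in no comparison.

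The purine nucleobase transporter Slc43a3 (ENSMUSG00000027074; chromosome 2, 84936579 to 84958509) rose with SCF and again when TGF-β was added to SCF. Its levels were 27.5 and 42.2 CPM in SCF, 72.4 and 78.9 CPM in SCF with 1 ng/mL TGF-β and 79.99 and 78.2 CPM in SCF with 10 ng/mL TGF-β. Without SCF, Slc43a3 was at 6.22 and 2.11 CPM in IL-3, 8.48 CPM in 1 ng/mL TGF-β alone and 17.1 CPM in 10 ng/mL TGF-β alone. The 6 libraries with SCF lay above the 4 without it, and the 4 with SCF and TGF-β above the 2 with SCF. The log2 fold changes were 2.94 ± 0.37, adjusted p = 0.000118 for SCF against IL-3, 1.13 ± 0.23, adjusted p = 0.00774 for 1 ng/mL and 1.20 ± 0.23, adjusted p = 0.00308 for 10 ng/mL TGF-β added to SCF, and 2.67 ± 0.28, adjusted p = 5.76e-06 for SCF plus TGF-β against TGF-β alone. The calls for TGF-β added to SCF were lost without replicate 1 of SCF, at adjusted p = 0.145 for 1 ng/mL and 0.0711 for 10 ng/mL. The equilibrative nucleoside transporter Slc29a1 was lower in TGF-β alone (40.7 CPM at 1 ng/mL and 42 CPM at 10 ng/mL) than in IL-3 (65.3 and 73.7 CPM), with -0.74 ± 0.20, adjusted p = 0.0435, a call lost without each of 6 libraries in turn (adjusted p = 0.175 when the library of 10 ng/mL TGF-β alone was left out). With SCF present it was at 67.1 and 59.2 CPM in SCF, 57.7 and 62.9 CPM in SCF with 1 ng/mL TGF-β and 67.9 and 66.2 CPM in SCF with 10 ng/mL TGF-β. Its relative Slc29a3, of lysosomes and mitochondria, was called in no comparison.

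**Figure D2:**
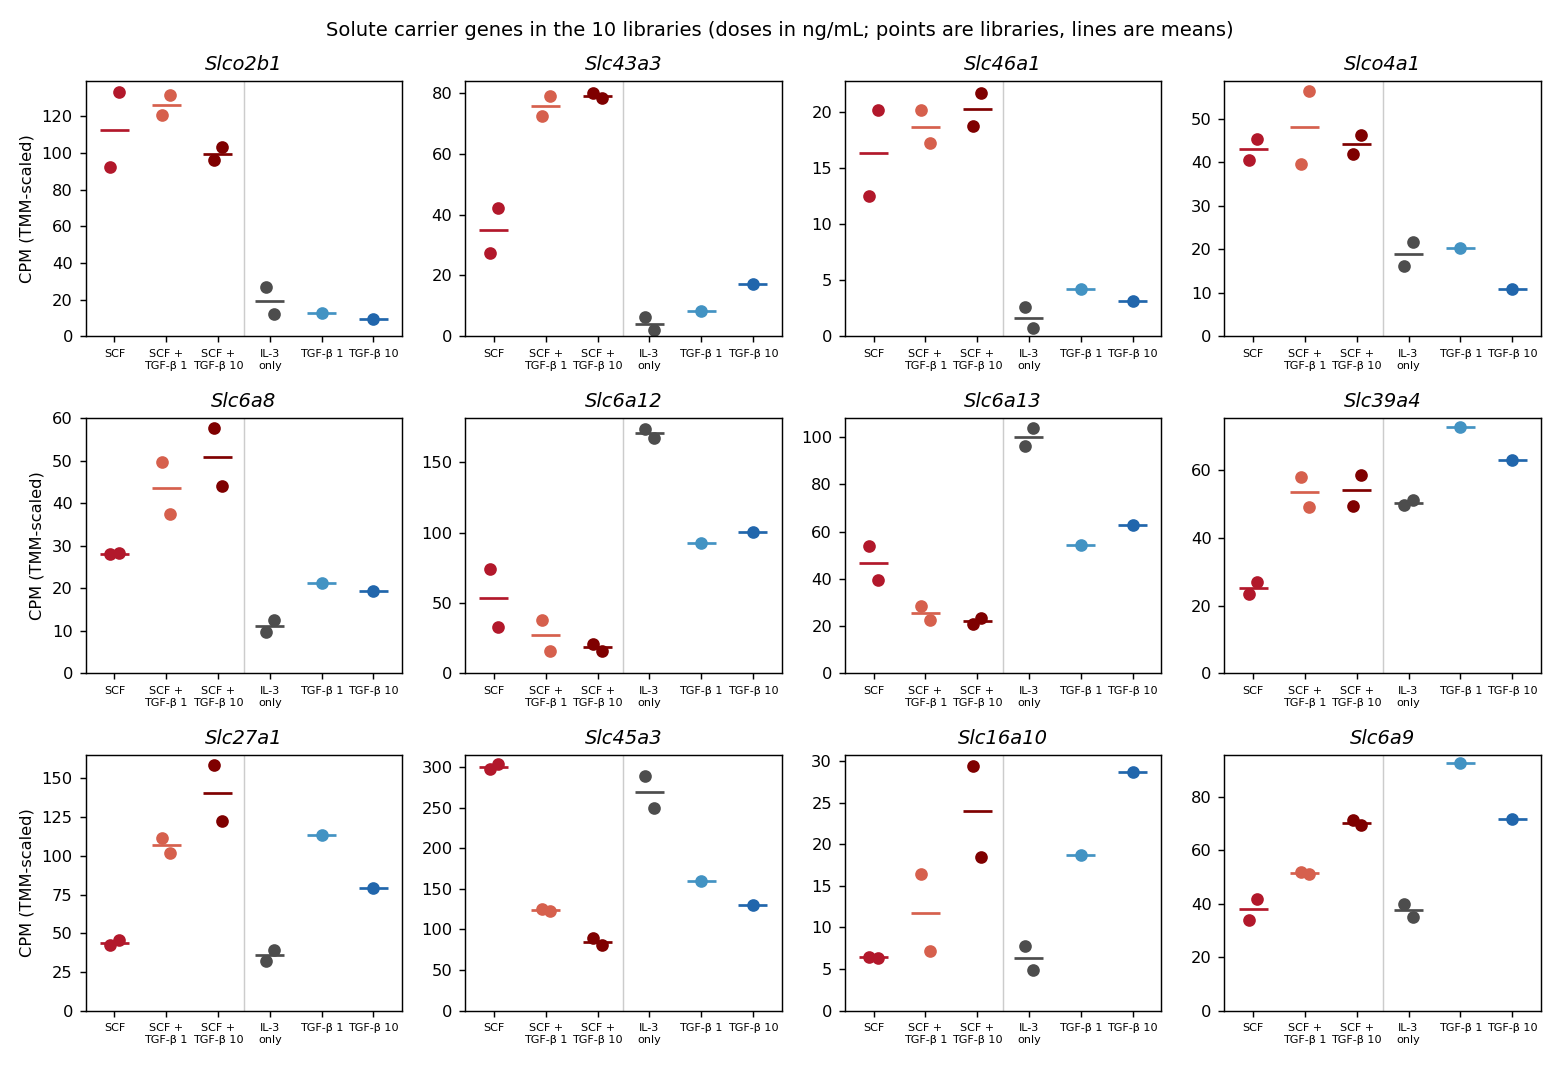
CPM (vertical axis, scaled by library size and TMM factor) of 12 solute carrier genes in the 10 libraries, by group; points are libraries, lines are group means, and the doses of TGF-β are in ng/mL. Slco2b1, Slc43a3, Slc46a1, Slco4a1 and Slc6a8 were higher in every library with SCF than in any without it, and Slc27a1 was higher in every library with TGF-β than in any without it.

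The 4 amine and osmolyte carriers all belong to the sodium-driven SLC6 family, and with 10 ng/mL TGF-β added to SCF 3 of them fell and 1 rose. Of all genes tested, 4.59% fell and 3.78% rose in that comparison. Slc6a13 (ENSMUSG00000030108; chromosome 6, 121300227 to 121337733), a GABA and taurine transporter, was the only member called in all 5 comparisons. It was at 54.1 and 39.7 CPM in SCF, 28.6 and 22.6 CPM in SCF with 1 ng/mL TGF-β and 21 and 23.3 CPM in SCF with 10 ng/mL TGF-β. Without SCF, Slc6a13 was at 96.4 and 104 CPM in IL-3, 54.3 CPM in 1 ng/mL TGF-β alone and 62.9 CPM in 10 ng/mL TGF-β alone. The IL-3 libraries were highest, those of SCF and of TGF-β alone lay next to each other, and those of SCF with TGF-β were lowest. The log2 fold changes were -1.08 ± 0.20, adjusted p = 0.0024 for SCF against IL-3, -0.77 ± 0.20, adjusted p = 0.041 for TGF-β alone against IL-3, and -0.87 ± 0.22, adjusted p = 0.0298 at 1 ng/mL and -1.09 ± 0.23, adjusted p = 0.00493 at 10 ng/mL TGF-β added to SCF. For SCF plus TGF-β against TGF-β alone it was -1.29 ± 0.20, adjusted p = 0.000154. The last call held without any single library, and the others were lost without at least 1, at adjusted p up to 0.0501, 0.217, 0.328 and 0.101 in the order given. Under DESeq2 the calls for TGF-β alone against IL-3 and for 1 ng/mL added to SCF were also lost.

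Its neighbour Slc6a12 (ENSMUSG00000030109; chromosome 6, 121343076 to 121365775), the betaine and GABA transporter, starts 5342 bases after the end of Slc6a13 in GENCODE vM21. The most upstream RefSeq start of Slc6a12, used below, lies nearer to Slc6a13. Slc6a12 was at 74.1 and 32.8 CPM in SCF, 38.3 and 16 CPM in SCF with 1 ng/mL TGF-β and 21 and 16.3 CPM in SCF with 10 ng/mL TGF-β. Without SCF, Slc6a12 was at 174 and 168 CPM in IL-3, 92.5 CPM in 1 ng/mL TGF-β alone and 100.2 CPM in 10 ng/mL TGF-β alone. The libraries with SCF were lower than those without it, and in each SCF group replicate 1 was above replicate 2. Slc6a12 fell in both SCF comparisons, with -1.65 ± 0.29, adjusted p = 0.00204 in SCF against IL-3 and -2.06 ± 0.28, adjusted p = 6.88e-05 in SCF plus TGF-β against TGF-β alone. With 10 ng/mL TGF-β added to SCF the change was -1.53 ± 0.36, adjusted p = 0.0118, and -0.80 without replicate 1 of SCF, when the call was lost (adjusted p = 0.309). These genes are close paralogs, so their counts are uncertain where a read matches both.

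Because the neighbours both fell with SCF, the bases before their most upstream start are shown (RefSeq on GRCm38.p6, plus strand). The stretches are chr6:121300038-121300226 for Slc6a13, which stops before the first base transcribed in either annotation, and chr6:121342324-121342573 for Slc6a12. Capitals mark the SMAD-type motif CAGACA on either strand.
Slc6a13: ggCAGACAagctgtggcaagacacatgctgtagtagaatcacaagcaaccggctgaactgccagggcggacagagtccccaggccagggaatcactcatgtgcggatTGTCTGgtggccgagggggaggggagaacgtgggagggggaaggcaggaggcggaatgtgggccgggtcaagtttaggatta
Slc6a12: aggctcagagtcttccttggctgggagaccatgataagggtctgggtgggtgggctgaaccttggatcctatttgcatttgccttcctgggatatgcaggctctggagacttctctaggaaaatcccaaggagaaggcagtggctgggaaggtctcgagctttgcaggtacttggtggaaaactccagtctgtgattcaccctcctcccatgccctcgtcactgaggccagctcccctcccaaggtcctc
The Slc6a13 stretch held 2 such matches and the Slc6a12 stretch 0. Neither held the E-box CACGTG, the GATA-type letters AGATAA or the AP-1 motif TGACTCA, each searched on both strands. Other forms of these motifs were not searched, so their absence is not shown. The Slc6a13 stretch had 189 bases, fewer than the windows below. Over all 32851 windows of 250 bases before a RefSeq start, 17.1% held CAGACA, 6.02% CACGTG, 9.99% AGATAA and 4.46% TGACTCA. Of the 110 members with a window, 8 held CAGACA, 12 CACGTG, 5 AGATAA and 2 TGACTCA, and a match says only that these letters are present.

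The creatine transporter Slc6a8 and the taurine transporter Slc6a6 completed the class. Slc6a8 was at 28 and 28.4 CPM in SCF, 49.7 and 37.4 CPM in SCF with 1 ng/mL TGF-β and 57.6 and 44 CPM in SCF with 10 ng/mL TGF-β. Without SCF, Slc6a8 was at 9.85 and 12.6 CPM in IL-3, 21.2 CPM in 1 ng/mL TGF-β alone and 19.4 CPM in 10 ng/mL TGF-β alone. It rose with SCF (1.34 ± 0.30, adjusted p = 0.00947 against IL-3; 1.22 ± 0.24, adjusted p = 0.00146 against TGF-β alone) and with 10 ng/mL TGF-β added to SCF (0.86 ± 0.23, adjusted p = 0.0307). Slc6a6 was at 364 and 357 CPM in SCF, 253 and 252 CPM in SCF with 1 ng/mL TGF-β and 223 and 240.0 CPM in SCF with 10 ng/mL TGF-β. Without SCF, Slc6a6 was at 280.3 and 321 CPM in IL-3, 279 CPM in 1 ng/mL TGF-β alone and 275 CPM in 10 ng/mL TGF-β alone. It was lower in both combinations than in SCF (-0.51 ± 0.13, adjusted p = 0.0335 at 1 ng/mL; -0.64 ± 0.13, adjusted p = 0.00564 at 10 ng/mL). Each of these calls was lost without at least 1 library, as for Slc6a8 against IL-3 (adjusted p = 0.0843 when replicate 1 of IL-3 was left out) and Slc6a6 at 10 ng/mL (adjusted p = 0.0832 when replicate 1 of SCF plus 10 ng/mL TGF-β was left out).

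Of 18 amino acid carriers, 2 were called higher and 1 lower in SCF than in IL-3. With 1 ng/mL TGF-β added to SCF 0 were called, and with 10 ng/mL 4 were higher and 0 lower. In TGF-β alone against IL-3 2 were higher and 2 lower, and in SCF plus TGF-β against TGF-β alone 6 were higher and 1 lower. Among all genes tested, 5.71% were higher and 3.46% lower in SCF than in IL-3. Adding the lower TGF-β dose to SCF raised 1.89% of them and lowered 2.75%, and the higher dose raised 3.78% and lowered 4.59%. TGF-β alone raised 1.36% and lowered 2.12%, while 13.3% were higher and 11.4% lower in the combinations than in TGF-β alone. In all, 11 of the 18 were called at least once across these 5 comparisons, beside 30.8% of all genes tested. The glutamine transporters Slc38a1 and Slc38a2 rose with SCF in both contexts. Slc38a1 was at 83.6 and 108 CPM in SCF, 79.6 and 86.6 CPM in SCF with 1 ng/mL TGF-β and 86.7 and 89 CPM in SCF with 10 ng/mL TGF-β. Without SCF, Slc38a1 was at 54.9 and 65.3 CPM in IL-3, 40.7 CPM in 1 ng/mL TGF-β alone and 52.1 CPM in 10 ng/mL TGF-β alone. All 6 libraries with SCF were above the 4 without it. Slc38a2 was at 74.6 and 76.3 CPM in SCF, 97.7 and 111 CPM in SCF with 1 ng/mL TGF-β and 113 and 111 CPM in SCF with 10 ng/mL TGF-β. Without SCF, Slc38a2 was at 56 and 41.4 CPM in IL-3, 63.6 CPM in 1 ng/mL TGF-β alone and 59.8 CPM in 10 ng/mL TGF-β alone. The same held for Slc38a2. Slc38a2 also rose with 10 ng/mL TGF-β added to SCF (0.57 ± 0.17, adjusted p = 0.0458; adjusted p = 0.203 when replicate 1 of SCF was left out). The changes against IL-3 were 0.67 ± 0.18, adjusted p = 0.0283 for Slc38a1 and 0.61 ± 0.19, adjusted p = 0.0471 for Slc38a2, and against TGF-β alone 0.89 ± 0.18, adjusted p = 0.00154 and 0.81 ± 0.16, adjusted p = 0.00175 in the same order. The glutamine and neutral amino acid transporter Slc1a5 was at 108 and 112 CPM and 107 and 135 CPM in SCF with 1 and 10 ng/mL TGF-β, against 50.1 and 68.4 CPM in TGF-β alone (0.98 ± 0.20, adjusted p = 0.0018). It was not called in SCF (77.1 and 124 CPM) against IL-3 (91.7 and 81.4 CPM; 0.20 ± 0.21, adjusted p = 0.611). The cationic amino acid transporter Slc7a1 and the neutral amino acid transporter Slc6a19 were likewise called only against TGF-β alone, at 1.15 ± 0.40, adjusted p = 0.0428 for Slc7a1 and 1.61 ± 0.34, adjusted p = 0.00232 for Slc6a19. Each of these calls was lost without at least 1 library (adjusted p = 0.258 when replicate 2 of SCF was left out for Slc38a1 against IL-3; adjusted p = 0.0708 when the library of 1 ng/mL TGF-β alone was left out for Slc1a5).

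The CD98 heavy chain gene Slc3a2 and its light chain partner Slc7a8 were abundant and lowest in TGF-β alone. Slc3a2 was at 983 and 758 CPM in SCF, 713 and 670.1 CPM in SCF with 1 ng/mL TGF-β and 673 and 643 CPM in SCF with 10 ng/mL TGF-β. Without SCF, Slc3a2 was at 813 and 724 CPM in IL-3, 533 CPM in 1 ng/mL TGF-β alone and 476 CPM in 10 ng/mL TGF-β alone. The TGF-β alone libraries were below all 8 others. Slc7a8 was at 1118 and 842 CPM in SCF, 855 and 757 CPM in SCF with 1 ng/mL TGF-β and 721 and 725 CPM in SCF with 10 ng/mL TGF-β. Without SCF, Slc7a8 was at 983 and 901 CPM in IL-3, 620.3 CPM in 1 ng/mL TGF-β alone and 639 CPM in 10 ng/mL TGF-β alone. The same held for Slc7a8. The changes were -0.61 ± 0.14, adjusted p = 0.0237 for Slc3a2 and -0.58 ± 0.14, adjusted p = 0.032 for Slc7a8 against IL-3, and both calls were lost without at least 1 library (adjusted p = 0.189 when the library of 10 ng/mL TGF-β alone was left out for Slc3a2; adjusted p = 0.184 when replicate 1 of IL-3 was left out for Slc7a8). Another light chain, the cationic and neutral amino acid exchanger Slc7a6, was at 26 and 35.9 CPM in SCF and 48.2 and 68.8 CPM in IL-3 (-0.91 ± 0.27, adjusted p = 0.0396), and at 51.4 and 64.1 CPM when 10 ng/mL TGF-β was added to SCF (0.91 ± 0.26, adjusted p = 0.0393). Both calls were lost without at least 1 library (adjusted p = 0.321 when replicate 2 of IL-3 was left out; adjusted p = 0.295 when replicate 1 of SCF was left out for the dose).

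Transcripts of the glycine transporter and of an aromatic amino acid transporter rose with TGF-β, with and without SCF. The glycine transporter Slc6a9 was at 34 and 41.6 CPM in SCF, 51.8 and 51 CPM in SCF with 1 ng/mL TGF-β and 71.1 and 69.5 CPM in SCF with 10 ng/mL TGF-β. Without SCF, Slc6a9 was at 39.9 and 35.1 CPM in IL-3, 92.5 CPM in 1 ng/mL TGF-β alone and 71.5 CPM in 10 ng/mL TGF-β alone. All 6 libraries with TGF-β were above the 4 without it. Slc16a10, which carries aromatic amino acids and thyroid hormone, was at 6.51 and 6.3 CPM in SCF, 16.4 and 7.12 CPM in SCF with 1 ng/mL TGF-β and 29.5 and 18.5 CPM in SCF with 10 ng/mL TGF-β. Without SCF, Slc16a10 was at 7.77 and 4.91 CPM in IL-3, 18.7 CPM in 1 ng/mL TGF-β alone and 28.8 CPM in 10 ng/mL TGF-β alone. For Slc16a10 the libraries with 10 ng/mL TGF-β were above all those without TGF-β, and the replicates of each combination lay apart. The changes were 0.90 ± 0.19, adjusted p = 0.00496 for Slc6a9 and 1.90 ± 0.42, adjusted p = 0.00726 for Slc16a10 when 10 ng/mL TGF-β was added to SCF, and 1.11 ± 0.19, adjusted p = 0.00278 and 1.82 ± 0.45, adjusted p = 0.031 for TGF-β alone against IL-3, in the same order. At 1 ng/mL with SCF neither was called (0.45 ± 0.19 and 0.93 ± 0.45). Of the exon bases of Slc6a9, 30.2% overlap genes on the opposite strand and the strand setting of the counting is not given, so that reads of these genes may be mixed. Without 1 library the Slc16a10 calls were lost (adjusted p = 0.12 when replicate 1 of SCF plus 10 ng/mL TGF-β was left out; adjusted p = 0.263 when the library of 10 ng/mL TGF-β alone was left out for TGF-β alone), as were those of Slc6a9 (adjusted p = 0.0825 when replicate 1 of SCF was left out; adjusted p = 0.0521 when the library of 1 ng/mL TGF-β alone was left out for TGF-β alone).

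Of the 8 sugar and polyol carriers, 2 fell at both doses of TGF-β added to SCF. Of all genes tested, 2.75% fell at 1 ng/mL and 4.59% at 10 ng/mL. Slc45a3 (ENSMUSG00000026435; chromosome 1, 131962967 to 131982969), of a family of proton-linked sugar transporters, was at 297 and 303 CPM in SCF, 125 and 122 CPM in SCF with 1 ng/mL TGF-β and 88.9 and 80.4 CPM in SCF with 10 ng/mL TGF-β. Without SCF, Slc45a3 was at 289 and 249.8 CPM in IL-3, 159.5 CPM in 1 ng/mL TGF-β alone and 129.8 CPM in 10 ng/mL TGF-β alone. The libraries without TGF-β were all above those with it, and in SCF the 10 ng/mL libraries were below the 1 ng/mL ones. The changes were -1.27 ± 0.14, adjusted p = 3.84e-05 at 1 ng/mL and -1.82 ± 0.15, adjusted p = 6.38e-07 at 10 ng/mL added to SCF, and -0.91 ± 0.15, adjusted p = 0.00142 in TGF-β alone against IL-3. The last call was lost without the library of 10 ng/mL TGF-β alone (adjusted p = 0.0546). Of its exon bases 13.5% overlap a noncoding transcript on the same strand. The lysosomal hexose transporter Slc2a6 was at 310.4 and 333 CPM in SCF, 221 and 214 CPM in SCF with 1 ng/mL TGF-β and 198 and 189 CPM in SCF with 10 ng/mL TGF-β. Without SCF, Slc2a6 was at 219 and 246 CPM in IL-3, 212 CPM in 1 ng/mL TGF-β alone and 199.7 CPM in 10 ng/mL TGF-β alone. It was higher in SCF than in any other group (0.47 ± 0.14, adjusted p = 0.0388 against IL-3), and lower with 1 ng/mL (-0.56 ± 0.14, adjusted p = 0.021) and 10 ng/mL TGF-β (-0.73 ± 0.14, adjusted p = 0.00202). Only the last of these held without any single library (adjusted p = 0.2 when replicate 2 of SCF was left out for SCF against IL-3; adjusted p = 0.164 when replicate 2 of SCF plus 1 ng/mL TGF-β was left out for 1 ng/mL). The SWEET family sugar transporter Slc50a1 was at 25.7 and 18.4 CPM and 22.3 and 28.2 CPM in SCF with 1 and 10 ng/mL TGF-β, against 46.7 and 52.8 CPM in TGF-β alone (-1.06 ± 0.21, adjusted p = 0.00145). The other 5 sugar and polyol carriers, among them the endoplasmic reticulum glucose-6-phosphate transporter Slc37a4 and the myo-inositol transporter Slc5a3, were called in no comparison.

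The fatty acid transport protein gene Slc27a1 (ENSMUSG00000031808; chromosome 8, 71568882 to 71587302) rose in all 3 comparisons with TGF-β, and each call held without any single library. It was at 42.6 and 45.4 CPM in SCF, 112 and 102 CPM in SCF with 1 ng/mL TGF-β and 159 and 123 CPM in SCF with 10 ng/mL TGF-β. Without SCF, Slc27a1 was at 32.1 and 39.3 CPM in IL-3, 114 CPM in 1 ng/mL TGF-β alone and 79.3 CPM in 10 ng/mL TGF-β alone. All 6 libraries with TGF-β lay above the 4 without it, whether SCF was present or not. The rises were 1.29 ± 0.19, adjusted p = 0.0004 at 1 ng/mL and 1.68 ± 0.18, adjusted p = 1.23e-05 at 10 ng/mL added to SCF, and 1.42 ± 0.20, adjusted p = 0.000451 in TGF-β alone against IL-3. SCF against IL-3 gave 0.31 ± 0.21, adjusted p = 0.41, not called. Its relative Slc27a4 had a median of 7.86 CPM and was called in no comparison. The choline transporter-like gene Slc44a2 was at 50.5 and 45.7 CPM and 62.1 and 42.4 CPM in SCF with 1 and 10 ng/mL TGF-β, against 80.6 and 83.1 CPM in TGF-β alone (-0.70 ± 0.19, adjusted p = 0.012), a call lost without either TGF-β alone library (adjusted p = 0.133 when the library of 1 ng/mL TGF-β alone was left out).

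Of the monocarboxylate carriers, the lactate transporter Slc16a1 stood near the limit of detection and was listed at 0 in the library of 1 ng/mL TGF-β alone. Pooled over libraries it had 71 counts in the 4 libraries of SCF with TGF-β and 2 counts in the 2 of TGF-β alone, a ratio of 10.8 with a 95% interval of 2.87 to 90.5 that covers counting error only. TGF-β alone against IL-3 gave 2 counts against 13, a ratio of 0.209 (95% interval 0.0229 to 0.925, again counting error only). Slc16a1 was not called in that comparison, and its libraries overlapped. In CPM it was at 8.01 and 8.19 CPM in SCF, 8.84 and 12.5 CPM in SCF with 1 ng/mL TGF-β and 6.26 and 8.14 CPM in SCF with 10 ng/mL TGF-β. Without SCF, Slc16a1 was at 5.7 and 1.4 CPM in IL-3, 0 CPM in 1 ng/mL TGF-β alone and 1.55 CPM in 10 ng/mL TGF-β alone. It was called higher in SCF with TGF-β than in TGF-β alone, and the call was lost without the library of 1 ng/mL TGF-β alone (adjusted p = 0.172). Its relative Slc16a6 was at 33.1 and 41.2 CPM in 1 and 10 ng/mL TGF-β alone, against 85 and 70.2 CPM in IL-3 (-1.08 ± 0.24, adjusted p = 0.0173; adjusted p = 0.157 when replicate 1 of IL-3 was left out). Overlapping genes on the opposite strand or a microRNA cover 23.5% of its exon bases.

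Of the 20 metal and heme carriers, 3 zinc carriers fell in SCF against IL-3, and with 10 ng/mL TGF-β added to SCF 3 members rose and 2 fell. Of all genes tested, 3.46% fell in the first comparison, and 3.78% rose and 4.59% fell in the second. The zinc importer Slc39a4 (ENSMUSG00000063354; chromosome 15, 76612383 to 76617384) was at 23.5 and 27.1 CPM in SCF, 58.1 and 49.3 CPM in SCF with 1 ng/mL TGF-β and 49.6 and 58.6 CPM in SCF with 10 ng/mL TGF-β. Without SCF, Slc39a4 was at 49.7 and 51.2 CPM in IL-3, 73 CPM in 1 ng/mL TGF-β alone and 62.9 CPM in 10 ng/mL TGF-β alone. SCF alone was the low group, below every other library. The change was -0.9995 ± 0.21, adjusted p = 0.00796 for SCF against IL-3, and 1.10 ± 0.21, adjusted p = 0.00414 at 1 ng/mL and 1.10 ± 0.21, adjusted p = 0.00257 at 10 ng/mL TGF-β added to SCF. The call at 10 ng/mL held without any single library, while the others were lost (adjusted p = 0.0624 when replicate 2 of IL-3 was left out for SCF against IL-3; adjusted p = 0.0721 when replicate 1 of SCF was left out for 1 ng/mL). The zinc and manganese importer Slc39a8 was at 14 and 9.45 CPM in SCF, 30.3 and 14.8 CPM in SCF with 1 ng/mL TGF-β and 54.1 and 27.1 CPM in SCF with 10 ng/mL TGF-β. Without SCF, Slc39a8 was at 21.8 and 18.2 CPM in IL-3, 20.4 CPM in 1 ng/mL TGF-β alone and 48.2 CPM in 10 ng/mL TGF-β alone. It rose with 10 ng/mL TGF-β added to SCF (1.78 ± 0.37, adjusted p = 0.00564), but replicate 1 of the combination was well above replicate 2, and without it the value was 1.18 and the call lost (adjusted p = 0.141). Another importer, Slc39a6, fell, at 24.1 and 40.7 CPM in SCF with 10 ng/mL TGF-β against 64.1 and 84.5 CPM in SCF (-1.20 ± 0.25, adjusted p = 0.00465; adjusted p = 0.106 when replicate 1 of SCF plus 10 ng/mL TGF-β was left out).

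The zinc exporters Slc30a4 and Slc30a2, which load vesicles, fell with SCF. Slc30a4 was at 5.51 and 6.93 CPM in SCF, 10.5 and 7.72 CPM in SCF with 1 ng/mL TGF-β and 14.3 and 16.8 CPM in SCF with 10 ng/mL TGF-β. Without SCF, Slc30a4 was at 18.1 and 26.7 CPM in IL-3, 37.3 CPM in 1 ng/mL TGF-β alone and 10.1 CPM in 10 ng/mL TGF-β alone. It was lower in SCF than in IL-3 (-1.83 ± 0.37, adjusted p = 0.00528) and higher with 10 ng/mL TGF-β than in SCF (1.32 ± 0.38, adjusted p = 0.0381), and the libraries of TGF-β alone lay far apart. Slc30a2 was at 152 and 135 CPM in SCF, against 221 and 206 CPM in IL-3 (-0.57 ± 0.15, adjusted p = 0.0244). All these calls were lost without at least 1 library (adjusted p = 0.0751 when replicate 2 of IL-3 was left out for Slc30a4; adjusted p = 0.195 when replicate 2 of SCF was left out for Slc30a2). For other metals, the copper importer Slc31a1 was at 40.4 and 46.3 CPM and 35.7 and 39.1 CPM in SCF with 1 and 10 ng/mL TGF-β, against 17.8 and 23.3 CPM in TGF-β alone (0.98 ± 0.23, adjusted p = 0.00491; adjusted p = 0.189 when the library of 1 ng/mL TGF-β alone was left out). The heme transporter of endolysosomes Slc48a1 was at 376 and 427 CPM in SCF, 262 and 265 CPM in SCF with 1 ng/mL TGF-β and 243 and 254 CPM in SCF with 10 ng/mL TGF-β. Without SCF, Slc48a1 was at 459 and 425 CPM in IL-3, 333 CPM in 1 ng/mL TGF-β alone and 301 CPM in 10 ng/mL TGF-β alone. TGF-β added to SCF lowered it (-0.61 ± 0.13, adjusted p = 0.0118 at 1 ng/mL; -0.69 ± 0.13, adjusted p = 0.0028 at 10 ng/mL), and the call at 10 ng/mL held without any single library. The iron importer Slc11a2 had 20.6 to 38.9 CPM and was called in no comparison, and the iron carriers Slc11a1 and Slc40a1 were under the minimum, with 5 counts and 1 count in all.

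Of the 19 ion and pH carriers, 2 were lower in SCF than in IL-3, and 7 were lower and 1 higher in SCF plus TGF-β against TGF-β alone. Of all genes tested, 3.46% were lower in the first comparison, and 11.4% were lower and 13.3% higher in the second. The sodium bicarbonate cotransporter Slc4a7 was at 16.5 and 19.5 CPM in SCF, 23.6 and 23.1 CPM in SCF with 1 ng/mL TGF-β and 18.8 and 19 CPM in SCF with 10 ng/mL TGF-β. Without SCF, Slc4a7 was at 37.3 and 37.2 CPM in IL-3, 39 CPM in 1 ng/mL TGF-β alone and 52.1 CPM in 10 ng/mL TGF-β alone. The libraries with SCF were all below those without it. The Golgi sodium/proton exchanger Slc9a8 was at 28.5 and 30.9 CPM in SCF, 30.3 and 36.8 CPM in SCF with 1 ng/mL TGF-β and 38 and 34.2 CPM in SCF with 10 ng/mL TGF-β. Without SCF, Slc9a8 was at 51.3 and 63.2 CPM in IL-3, 72.1 CPM in 1 ng/mL TGF-β alone and 62.9 CPM in 10 ng/mL TGF-β alone. The same held for Slc9a8. Slc4a7 fell, with -1.05 ± 0.24, adjusted p = 0.0111 in SCF against IL-3 and -1.10 ± 0.20, adjusted p = 0.000824 in SCF plus TGF-β against TGF-β alone. Slc9a8 fell, with -0.94 ± 0.21, adjusted p = 0.0109 and -0.96 ± 0.18, adjusted p = 0.000971 in the same comparisons. Without 1 library all these calls were lost (adjusted p = 0.0818 when replicate 1 of SCF was left out for Slc4a7 and adjusted p = 0.121 when replicate 2 of IL-3 was left out for Slc9a8, against IL-3). The potassium-dependent sodium/calcium exchanger Slc24a3 was at 33.7 and 43.9 CPM and 35.7 and 38 CPM in SCF with 1 and 10 ng/mL TGF-β, against 81.5 and 53.6 CPM in TGF-β alone (-0.81 ± 0.18, adjusted p = 0.00279). Its value was -0.54 without the library of 1 ng/mL TGF-β alone, when the call was lost (adjusted p = 0.208). The phosphate importer Slc20a1 had 100.0 to 166 CPM and was called in no comparison.

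A pair of ion carriers called against TGF-β alone had replicates far apart. The sulfate transporter Slc26a11 was at 12 and 5.04 CPM in SCF, 10.5 and 1.78 CPM in SCF with 1 ng/mL TGF-β and 13.9 and 2.71 CPM in SCF with 10 ng/mL TGF-β. Without SCF, Slc26a11 was at 15 and 14.7 CPM in IL-3, 29.7 CPM in 1 ng/mL TGF-β alone and 21.8 CPM in 10 ng/mL TGF-β alone. In all 3 SCF groups replicate 1 was above replicate 2. Slc4a11 was at 18.5 and 12.6 CPM in SCF, 21.9 and 7.72 CPM in SCF with 1 ng/mL TGF-β and 10.7 and 4.89 CPM in SCF with 10 ng/mL TGF-β. Without SCF, Slc4a11 was at 28.5 and 16.8 CPM in IL-3, 35.6 CPM in 1 ng/mL TGF-β alone and 33.4 CPM in 10 ng/mL TGF-β alone. The same held for Slc4a11. The calls for SCF plus TGF-β against TGF-β alone were -1.73 ± 0.49, adjusted p = 0.0163 for Slc26a11 and -1.62 ± 0.36, adjusted p = 0.00365 for Slc4a11. For Slc26a11 the value was -2.65 without replicate 1 of SCF plus 1 ng/mL TGF-β, and its call was lost without either TGF-β alone library (adjusted p = 0.266 when the library of 1 ng/mL TGF-β alone was left out); that of Slc4a11 was lost without the library of 10 ng/mL (adjusted p = 0.126).

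Mitochondrial carriers were the largest class and 21 of its 30 members were called in no comparison. The other 9 were called at least once across the 5 comparisons, beside 30.8% of all genes tested. Among those called were 2 abundant carriers that serve oxidative phosphorylation, which rose with SCF. The ADP/ATP carrier Slc25a5 was at 555 and 654 CPM in SCF, 562 and 675 CPM in SCF with 1 ng/mL TGF-β and 561 and 644 CPM in SCF with 10 ng/mL TGF-β. Without SCF, Slc25a5 was at 418 and 313 CPM in IL-3, 266 CPM in 1 ng/mL TGF-β alone and 375 CPM in 10 ng/mL TGF-β alone. All 6 libraries with SCF were above the 4 without it. The phosphate carrier Slc25a3 was at 596 and 666 CPM in SCF, 599.6 and 591 CPM in SCF with 1 ng/mL TGF-β and 594 and 594 CPM in SCF with 10 ng/mL TGF-β. Without SCF, Slc25a3 was at 427 and 398 CPM in IL-3, 428 CPM in 1 ng/mL TGF-β alone and 461 CPM in 10 ng/mL TGF-β alone. The same held for Slc25a3. Slc25a5 rose by 0.72 ± 0.16, adjusted p = 0.00947 against IL-3 and 0.95 ± 0.15, adjusted p = 0.000173 against TGF-β alone, and Slc25a3 by 0.61 ± 0.13, adjusted p = 0.00651 and 0.42 ± 0.11, adjusted p = 0.0119. Both calls against IL-3 were lost without replicate 2 of either group (adjusted p = 0.156 when replicate 2 of IL-3 was left out for Slc25a5; adjusted p = 0.0797 when replicate 2 of IL-3 was left out for Slc25a3). The genome holds many processed copies of such genes, so reads that match several places may be missing from these counts. The other ADP/ATP carrier, Slc25a4, was called in no comparison.

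The calcium-regulated ATP-Mg/phosphate carriers Slc25a23, Slc25a24 and Slc25a25 were each called in at least 1 comparison. Slc25a23 was at 4 and 3.15 CPM in SCF, 5.9 and 5.34 CPM in SCF with 1 ng/mL TGF-β and 3.57 and 3.8 CPM in SCF with 10 ng/mL TGF-β. Without SCF, Slc25a23 was at 16.1 and 10.5 CPM in IL-3, 10.2 CPM in 1 ng/mL TGF-β alone and 11.7 CPM in 10 ng/mL TGF-β alone. It was lower in every library with SCF (-1.88 ± 0.47, adjusted p = 0.0191 against IL-3; -1.24 ± 0.41, adjusted p = 0.0361 against TGF-β alone). Slc25a24 was at 19 and 23.3 CPM in SCF, 14.7 and 9.5 CPM in SCF with 1 ng/mL TGF-β and 10.3 and 13.6 CPM in SCF with 10 ng/mL TGF-β. Without SCF, Slc25a24 was at 14.5 and 7.72 CPM in IL-3, 4.24 CPM in 1 ng/mL TGF-β alone and 0.777 CPM in 10 ng/mL TGF-β alone. Slc25a25 was at 12.7 and 10.9 CPM in 1 and 10 ng/mL TGF-β alone, against 35.8 and 26 CPM in IL-3. Both TGF-β alone libraries were below both IL-3 libraries for both genes, with -2.59 ± 0.64, adjusted p = 0.0324 for Slc25a24 and -1.40 ± 0.32, adjusted p = 0.0182 for Slc25a25 against IL-3. For Slc25a24 the value was -1.42 without the library of 10 ng/mL, which held 1 count of it, and the call was lost (adjusted p = 0.403). Its value for SCF plus TGF-β against TGF-β alone, 2.67 ± 0.58, adjusted p = 0.00307, was 1.53 without the same library (adjusted p = 0.137). The calls of Slc25a23 and Slc25a25 were also lost without replicate 1 of IL-3 (adjusted p = 0.146 for Slc25a23 and adjusted p = 0.176 for Slc25a25, against IL-3). The iron importer mitoferrin 1 (Slc25a37) had a median of 8.81 CPM and was called in no comparison.

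Of the 19 carriers of nucleotide sugars and acetyl-CoA, 15 were called in no comparison. The other 4 were called at least once across the 5 comparisons, beside 30.8% of all genes tested. The member that fell in all 3 comparisons with TGF-β was Slc35d1, which brings UDP-glucuronic acid and UDP-N-acetylgalactosamine into the endoplasmic reticulum and is needed for chondroitin sulfate in mouse cartilage. It was at 62.6 and 58.6 CPM in SCF, 32 and 33.8 CPM in SCF with 1 ng/mL TGF-β and 35.7 and 35.3 CPM in SCF with 10 ng/mL TGF-β. Without SCF, Slc35d1 was at 78.2 and 73 CPM in IL-3, 29.7 CPM in 1 ng/mL TGF-β alone and 45.8 CPM in 10 ng/mL TGF-β alone. Every library with TGF-β was below every library without it. The values were -0.88 ± 0.19, adjusted p = 0.00971 at 1 ng/mL and -0.77 ± 0.19, adjusted p = 0.0144 at 10 ng/mL added to SCF, and -1.04 ± 0.20, adjusted p = 0.00532 for TGF-β alone against IL-3, each lost without at least 1 library (adjusted p = 0.0886 when replicate 1 of SCF was left out; adjusted p = 0.107 when replicate 1 of SCF was left out for 10 ng/mL; adjusted p = 0.151 when the library of 1 ng/mL TGF-β alone was left out for TGF-β alone). Slc35c2, a Golgi protein linked to fucosylation, was at 131 and 142 CPM in SCF, 101 and 103 CPM in SCF with 1 ng/mL TGF-β and 75.5 and 86.9 CPM in SCF with 10 ng/mL TGF-β. Without SCF, Slc35c2 was at 92.2 and 73 CPM in IL-3, 59.4 CPM in 1 ng/mL TGF-β alone and 60.6 CPM in 10 ng/mL TGF-β alone. It was higher in SCF than in IL-3 (0.71 ± 0.17, adjusted p = 0.0124) and lower with 10 ng/mL TGF-β than in SCF (-0.75 ± 0.16, adjusted p = 0.00717), with both calls lost without 1 library (adjusted p = 0.153 when replicate 2 of IL-3 was left out; adjusted p = 0.11 when replicate 1 of SCF plus 10 ng/mL TGF-β was left out for the dose). The sulfate donor transporter Slc35b2 was at 106 and 103 CPM and 94.7 and 85.2 CPM in SCF with 1 and 10 ng/mL TGF-β, against 67.9 and 76.9 CPM in TGF-β alone (0.42 ± 0.15, adjusted p = 0.0464), and the value was 0.23 without the library of 1 ng/mL (adjusted p = 0.538).

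The vesicular nucleotide transporter Slc17a9, which loads ATP into secretory vesicles, was highest in SCF alone. It was at 26 and 37.8 CPM in SCF, 19.8 and 17.8 CPM in SCF with 1 ng/mL TGF-β and 15.6 and 15.7 CPM in SCF with 10 ng/mL TGF-β. Without SCF, Slc17a9 was at 16.6 and 16.1 CPM in IL-3, 11.9 CPM in 1 ng/mL TGF-β alone and 12.4 CPM in 10 ng/mL TGF-β alone. Both SCF libraries were above all 8 others. It was higher in SCF than in IL-3 (0.95 ± 0.28, adjusted p = 0.0451) and lower with 10 ng/mL TGF-β than in SCF (-1.01 ± 0.28, adjusted p = 0.0308), and both calls were lost without 1 library (adjusted p = 0.34 when replicate 2 of SCF was left out; adjusted p = 0.257 when replicate 2 of SCF was left out for the dose). The lysosomal histidine and peptide transporter Slc15a4 had 37.9 to 54.1 CPM and was called in no comparison. Among the 3 genes that are not transporters, the nuclear protein gene Slc4a1ap was at 15.5 and 10.7 CPM in SCF, against 26.9 and 37.2 CPM in IL-3 (-1.25 ± 0.29, adjusted p = 0.0127; adjusted p = 0.145 when replicate 2 of IL-3 was left out), and the RNA polymerase II import factor Slc7a6os was lower in SCF with TGF-β than in TGF-β alone (-0.85 ± 0.29, adjusted p = 0.0433; adjusted p = 0.423 when the library of 1 ng/mL TGF-β alone was left out).

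**Figure D3:**
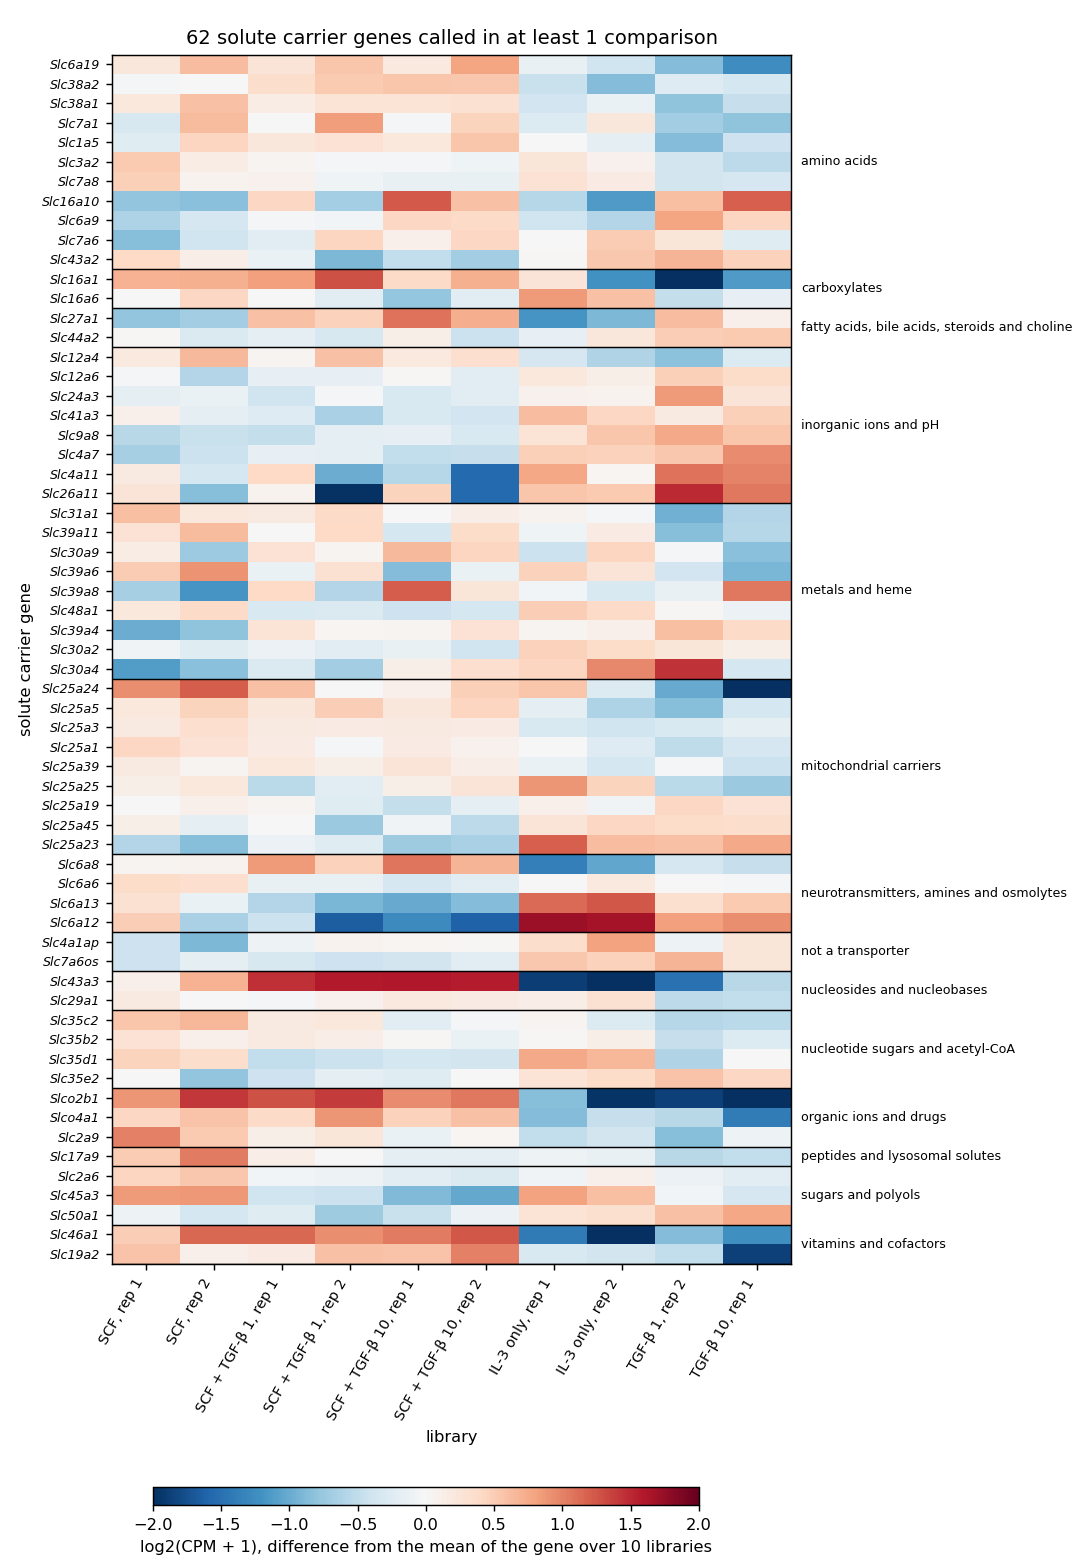
Of the 63 members called in at least 1 of 5 comparisons, 62 (rows, by substrate class) in the 10 libraries (columns); colour is log2(CPM + 1) minus the mean of the gene over the 10 libraries, and the scale ends at 2 and -2. Slco2b1, Slc43a3 and Slc46a1 were above their mean in the libraries with SCF and below it in those without, and Slc6a12 was highest in the IL-3 libraries.

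SCF was tested without TGF-β (against IL-3) and with it (against TGF-β alone), and these comparisons share no library. They come from 1 fit with a shared spread. Same-numbered libraries of SCF and of the combinations deviated together, with correlations of 0.228 for 1 ng/mL and 0.193 for 10 ng/mL. Agreement between the comparisons is therefore not independent. Of the 13 members higher in SCF than in IL-3, 10 were also called higher against TGF-β alone (76.9% of the 13 and 40% of the 25 called there). Of the 10 lower members 6 were also called lower (60% of the 10 and 31.6% of the 19). The sign was the same for 12 of the 13 and 9 of the 10; the exceptions were Slc2a6 and Slc7a6. Across the 146 members the log2 fold changes had a Pearson correlation of 0.711, as a description across genes, which are not independent replicates. Among all genes tested, 24.7% were called in SCF plus TGF-β against TGF-β alone. The shared calls, signs and correlation were not computed over all genes, so nothing particular to the carriers is read from these values.

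**Figure D4:**
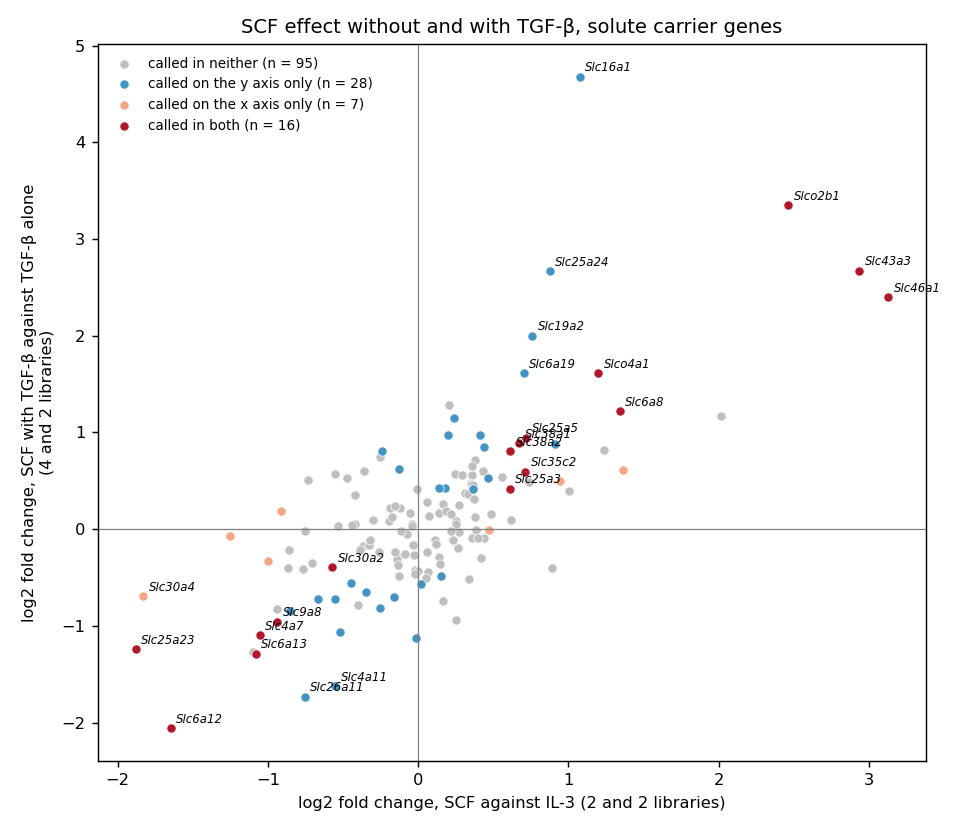
Log2 fold change of the 146 members in SCF against IL-3 (horizontal axis) and in SCF plus TGF-β against TGF-β alone (vertical axis); points are genes, coloured by where they were called. In all, 16 genes were called in both, with Slco2b1, Slc43a3 and Slc46a1 at the upper right and Slc6a12 at the lower left; the fitted value of Slc16a1 rests on 2 counts in TGF-β alone and is no measure of its fold.

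TGF-β was likewise tested on SCF and without SCF, again with no shared library but in the same fit. Of the 10 members higher with 10 ng/mL TGF-β on SCF, 3 were also called in TGF-β alone (Slc16a10, Slc27a1 and Slc6a9, all those called higher there). Of the 11 lower members 3 were shared (27.3% of the 11 and 33.3% of the 9), namely Slc35d1, Slc45a3 and Slc6a13. The sign was the same for 8 of the 10 and all 11, with Slc30a4 and Slc7a6 the exceptions. The correlation across the 146 members was 0.455 for 10 ng/mL and 0.443 for 1 ng/mL. Again the matching values over all genes were not computed, and 3.48% of all genes tested were called in TGF-β alone against IL-3. Nothing particular to the carriers is read from these values either.

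**Figure D5:**
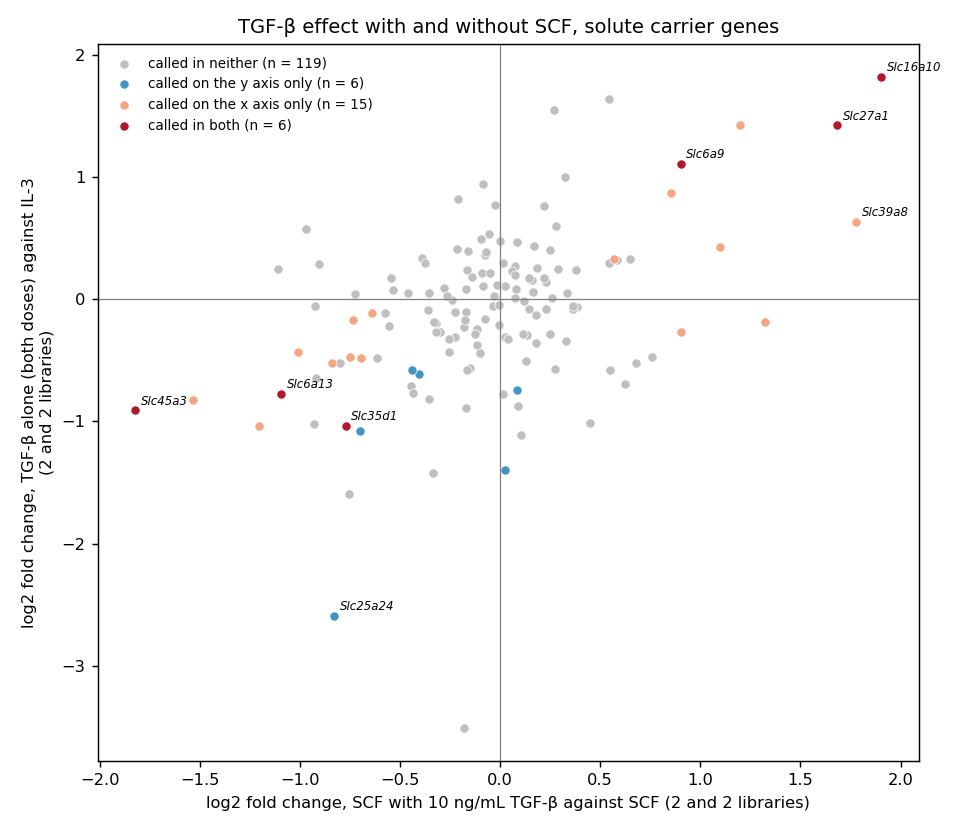
Log2 fold change of the 146 members in SCF with 10 ng/mL TGF-β against SCF (horizontal axis) and in TGF-β alone, with doses averaged, against IL-3 (vertical axis); points are genes, coloured by where they were called. Slc16a10, Slc27a1 and Slc6a9 were called higher in both and Slc45a3, Slc6a13 and Slc35d1 lower in both; the lowest point, called in neither, is Slc16a1 with 2 counts in TGF-β alone.

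The difference between these effects was tested as the interaction of SCF and TGF-β on the log2 scale. edgeR's test called 0 of the 146 members, against 0.293% of all genes tested (0.116% higher and 0.178% lower), with 17 members at an unadjusted p under 0.05 (12 higher, 5 lower) and 0 called by DESeq2, which gave an adjusted p for 55. The lowest p was that of Slc45a3 (-0.64 ± 0.19, adjusted p = 0.255), followed by Slc7a6 (1.11 ± 0.35, adjusted p = 0.3). An effect called in 1 context and missing in the other is therefore not shown to differ. Between 10 and 1 ng/mL TGF-β, both with SCF, edgeR called 0 members, against 0.0178% of all genes (0.00889% higher and 0.00889% lower), with 11 at an unadjusted p under 0.05 (7 higher, 4 lower) and 0 called by DESeq2. Slc45a3 had the lowest unadjusted p there (0.00214; log2 fold change -0.55 ± 0.15), followed by Slc16a10 (0.98 ± 0.36) and Slc6a9 (0.45 ± 0.18), none past the adjusted threshold.

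In all, 63 members (43.2%) were called in at least 1 of the 5 comparisons between groups and 83 in none, beside 30.8% of all genes tested. By class, those called were 4 of 4 amine and osmolyte, 2 of 2 carboxylate, 2 of 3 nucleoside, 11 of 18 amino acid, 3 of 5 organic ion and 9 of 19 ion and pH carriers. They were 9 of 20 metal and heme, 2 of 5 lipid and choline, 3 of 8 sugar, 1 of 3 peptide, 9 of 30 mitochondrial, 2 of 7 vitamin and 4 of 19 nucleotide sugar carriers, and 2 of 3 members that are not transporters. The shares were not tested against each other or against that of all genes. Summed over their members, the organic ion carriers were at 164 to 216 CPM in SCF, 184 to 214 CPM in SCF with 1 ng/mL TGF-β and 159 to 172 CPM in SCF with 10 ng/mL TGF-β. Without SCF they were at 61.1 to 71.0 CPM in IL-3, 53.5 CPM in 1 ng/mL and 38.9 CPM in 10 ng/mL TGF-β alone. The sugar carriers summed to 741 to 769 CPM in SCF, 466 to 483 CPM with 1 ng/mL and 401 to 412 CPM with 10 ng/mL TGF-β, and without SCF to 673 to 695 CPM in IL-3, 552 CPM in 1 ng/mL and 509.8 CPM in 10 ng/mL TGF-β alone. These sums are carried by a few abundant genes, Slco2b1 in the first class and Slc45a3 and Slc2a6 in the second.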

How the data were processed

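SmartSeq2 libraries without molecular identifiers were made from total RNA of the cells, per the labels' protocols. The deposited values are the authors' counts of reads per gene; STAR, HTSeq, DESeq2 and GRCm38 (mm10) are named in the submitters' processing notes. The annotation release and strand setting are not stated, and tool versions not given in the sources used here. Of all counts, 73.4% to 83.6% per library lay in 5 rows naming no gene, which were left out. Gene IDs were matched to GENCODE vM21 (49412 of 49671), which gave the 385 symbols, and read loss to repeated sequence can lower carriers with near-identical copies.

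Tests were run with edgeR 4.0.16 in R 4.3.3 (filterByExpr by group, TMM, quasi-likelihood F tests, 1 mean per group over all 10 libraries, 4 residual degrees of freedom, common biological coefficient of variation 0.126). P-values were adjusted by the Benjamini-Hochberg method over 11247 genes. Both single-library groups borrowed their spread from the others. The procedure was run on simulated counts with changes in SCF against IL-3 only and the same spread for every gene. The other comparisons were not covered by it. DESeq2 1.42.0, other scalings and filters, a replicate block and leaving out libraries were alternatives. Intervals and floors cover counting error only. Replicates differed by more than counting error (chi-square per gene 3.43 to 4.51).

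Genes were named by a rule: 18 fixed carriers, the 12 largest changes per comparison among called members with a mean of at least 10 CPM, and up to 3 called members per class with the lowest p. The values of 1 called member are not reported here. Members named beyond it were chosen after their values were seen. The members, classes and lists were chosen with earlier results of these data known.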

Additional observations from a re-analysis of the deposited data

How the results depend on the processing

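Among the genes named by the rule, no call changed direction under any alternative run. Sign changes were not counted where neither the main run nor the alternative gave a call. Under DESeq2's Wald test the calls were 7 higher and 3 lower for SCF against IL-3, 2 higher and 2 lower for 1 ng/mL and 5 higher and 6 lower for 10 ng/mL TGF-β added to SCF, 2 higher and 4 lower for TGF-β alone and 16 higher and 9 lower for the combinations against TGF-β alone. Without the second library of every SCF group, an alternative chosen after seeing the data, they were in the same order 6 and 7, 3 and 2, 6 and 8, 3 and 13, and 23 and 11. Of the 23 calls for SCF against IL-3, 6 were lost under DESeq2. It gave no adjusted p there for Slc4a7, Slc30a4, Slc25a23, Slc4a1ap, Slc2a9, Slc17a9 and Slc46a1. The calls of these genes were thus neither kept nor rejected by it. DESeq2 also lost 5 of the 9 calls for 1 ng/mL and 10 of the 21 for 10 ng/mL TGF-β added to SCF. Further losses were 6 of the 12 for TGF-β alone and 19 of the 44 for the combinations against TGF-β alone. Among these losses were Slc43a3 at 1 ng/mL, Slc6a9 and Slc6a12 at 10 ng/mL and Slc16a10 in TGF-β alone. The cause of the other differences was not tested.

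Leaving out 1 library at a time gave 3 to 13 higher and 3 to 11 lower calls for SCF against IL-3, 1 to 4 and 1 to 6 for 1 ng/mL, 4 to 10 and 3 to 12 for 10 ng/mL, 2 to 3 and 1 to 11 for TGF-β alone, and 10 to 26 and 6 to 18 for the combinations against TGF-β alone. Leaving out a library of a pair also lowers the residual degrees of freedom. Comparisons with TGF-β alone were not computed without both of its libraries.

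With the replicate number as a replicate block, higher and lower calls were 15 and 12 for SCF against IL-3, 4 and 8 for 1 ng/mL, 10 and 16 for 10 ng/mL, 3 and 14 for TGF-β alone and 27 and 21 for the combinations against TGF-β alone. Deviations of same-numbered libraries correlated at -0.004 to 0.022 between IL-3 and the SCF groups and at 0.193 to 0.228 among the SCF groups, so same-numbered SCF libraries deviated together but not with IL-3. The labels tie the numbers to no shared culture or day and each comparison has at most 2 such pairs, so the numbers are not taken to pair samples across the design, and a pairing within the SCF groups was not settled. With 10 ng/mL TGF-β added to SCF, Slc3a2 passed the threshold, in the same direction, under the block and without replicate 2 of SCF.

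Depth limits the low members: 33 of 146 had 10 counts or fewer in their lowest library.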

Other observations

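Other transporters were counted in the same comparisons, in which 9.17% of all genes tested were called for SCF against IL-3, 4.64% for 1 ng/mL and 8.37% for 10 ng/mL TGF-β added to SCF, 3.48% for TGF-β alone and 24.7% for the combinations against TGF-β alone. Nothing particular to these lists is read from the counts, which are small. Of 19 tested ABC transporters, which pump lipids and drugs using ATP, 1 was higher and 1 lower in SCF than in IL-3, 0 were called with 1 ng/mL and 0 higher and 1 lower with 10 ng/mL TGF-β added to SCF, 1 higher and 0 lower in TGF-β alone than in IL-3, and 2 higher and 3 lower in SCF with TGF-β than in TGF-β alone. The sterol exporter Abcg1 was at 122 and 120.4 CPM in SCF and 54.4 and 61.8 CPM in IL-3 (1.06 ± 0.18, adjusted p = 0.00169). The cholesterol exporter Abca1 was at 13 and 8.19 CPM in SCF, 4.63 and 1.78 CPM with 1 ng/mL and 1.79 and 0.543 CPM with 10 ng/mL TGF-β (-3.07 ± 0.67, adjusted p = 0.00715 for 10 ng/mL). Without SCF it was at 3.63 and 2.11 CPM in IL-3, 11.9 CPM in 1 ng/mL and 10.1 CPM in 10 ng/mL TGF-β alone. Its interaction of SCF and TGF-β was -4.22 ± 0.80, adjusted p = 0.037 by edgeR's test. The levels of 1.78, 1.79, 0.543 and 2.11 CPM are near or below that of 3 counts, so that these folds are imprecise.

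Of 19 tested P-type ATPases, 2 were higher and 0 lower in SCF than in IL-3, 0 were called with 1 ng/mL and 1 higher and 1 lower with 10 ng/mL TGF-β added to SCF, 0 were called in TGF-β alone, and 2 higher and 2 lower in SCF with TGF-β than in TGF-β alone. The sodium pump subunit Atp1b3 was at 198 and 235 CPM in SCF and 151 and 147 CPM in IL-3 (0.54 ± 0.15, adjusted p = 0.0314). Of 23 tested carriers without an Slc symbol and carrier partners, 2 were higher and 2 lower in SCF than in IL-3, 1 and 1 with 1 ng/mL and 2 and 2 with 10 ng/mL TGF-β added to SCF, 0 and 2 in TGF-β alone, and 3 and 3 in the combinations against TGF-β alone. The mitochondrial carrier Ucp2 was at 1717 and 1541 CPM in SCF and 896 and 779.6 CPM in IL-3 (0.96 ± 0.13, adjusted p = 0.000191), and at 1122 and 1009 CPM and 996 and 1020.3 CPM with 1 and 10 ng/mL TGF-β added to SCF (-0.61 ± 0.13, adjusted p = 0.00777 and -0.69 ± 0.13, adjusted p = 0.00186 against SCF). The mitochondrial serine transporter Sfxn1 was at 169 and 201 CPM and 188 and 197 CPM with 1 and 10 ng/mL TGF-β, against 113 and 129 CPM in SCF (0.61 ± 0.15, adjusted p = 0.0233 and 0.67 ± 0.15, adjusted p = 0.00864). The sphingosine 1-phosphate exporter Mfsd2b was at 0.501 and 0.63 CPM in SCF, against 6.74 and 4.21 CPM in IL-3 (-3.17 ± 0.97, adjusted p = 0.049). Both SCF libraries were below the level of 3 counts for Mfsd2b, so that its fold is imprecise. Whether the calls of Mfsd2b and the other genes of this section held without single libraries is not given here. The partner of the monocarboxylate carriers basigin (Bsg) was at 419.5 and 404 CPM in SCF, against 284 and 293 CPM in IL-3 (0.51 ± 0.13, adjusted p = 0.0195).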
